A study of Mus musculus with 18 samples.

Results

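The mitochondrial tRNAs of the mouse testis were represented by 8 listed cytosines in 6 RNAs, out of 192 sites in 128 RNAs measured in the small RNA fraction. They comprise every site whose RNA is named as a mitochondrial tRNA: 1 site each in mt-tRNA-Ser2, mt-tRNA-His, mt-tRNA-Leu1 and mt-tRNA-Pro, and 2 sites each in mt-tRNA-Met and mt-tRNA-Leu2. The mitochondrial genome carries 22 tRNA genes in the RefSeq gene table, and the sites listed under a mitochondrial tRNA name fall in 6 of them. RNA came from testes of adult Nsun7 knockout (KO) mice and of adult wild-type (WT) mice. Each genotype had 3 small RNA libraries, and the labels do not say whether separate animals were used for them. A p-value here is therefore set against the scatter of these libraries alone, which may be technical. The labels give no design of the knockout allele, strain or exact age, and the tables hold 0 sites in Nsun7 mRNA, so the knockout itself was not checked. Ultrafast bisulfite sequencing turns unmethylated cytosine into uracil, and the share of reads that still show C is taken as the level of 5-methylcytosine (m5C). An unmethylated cytosine left unconverted also counts as m5C, and how complete the conversion was remains unmeasured here.

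Mitochondria translate their own few mRNAs with tRNAs transcribed from the mitochondrial genome, and several of these tRNAs carry m5C. NSUN3 methylates the wobble base of the anticodon of mt-tRNA-Met, and ALKBH1 oxidises it further to 5-formylcytosine, which lets this single tRNA read both AUG and AUA codons. In conventional bisulfite sequencing 5-formylcytosine reads as unmethylated, and how it reads under the ultrafast protocol was not measured here. NSUN2, better known for cytosolic tRNAs, also enters mitochondria and methylates cytosines at the variable loop of several mitochondrial tRNAs. NSUN7 belongs to the same NOL1/NOP2/Sun family and is expressed in testis. The title of the series describes it as catalytically inactive on RNA, and the genotype comparison asks whether any listed site depends on it.

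The sites lay on the mitochondrial chromosome at positions 2725 (mt-tRNA-Leu1), 3875 and 3888 (mt-tRNA-Met), 11588 (mt-tRNA-His), 11646 (mt-tRNA-Ser2), 11716 and 11717 (mt-tRNA-Leu2) and 15404 (mt-tRNA-Pro), as the deposited table gives them. The build is GRCm39 per the submitters' processing notes. The 2 mt-tRNA-Met sites are 13 nucleotides apart and the 2 mt-tRNA-Leu2 sites are neighbouring bases. The upstream mt-tRNA-Met site, 3875, is a candidate for the NSUN3 wobble position and the other 7 are candidates for NSUN2-type positions, since the table carries no tRNA numbering and no enzyme. In the RefSeq gene order of GRCm38.p6, the genes of mt-tRNA-His, mt-tRNA-Ser2 and mt-tRNA-Leu2 follow each other between ND4 and ND5, mt-tRNA-Met stands between another tRNA and ND2, mt-tRNA-Leu1 between the large ribosomal RNA and ND1, and mt-tRNA-Pro follows mt-tRNA-Thr. A plus sign stands beside each of the 192 small RNA sites. The mt-tRNA-Pro gene is known to lie on the opposite strand from the other 5 RNAs, so its coordinate may not be a plus-strand base. Copies of mitochondrial sequence exist in the nuclear genome, and the sources used here do not give how the authors' alignment treated them.

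Summed coverage over the listed small RNA sites was 4674265 to 5096438 reads per library, a count that takes a read once at each site it covers. The 2 deepest sites, both in a cytosolic tRNA, had 961677 to 978773 reads in every library and held 38.1% to 41.5% of these sums, so the sums are a poor measure of library size. Whether a limit on counted depth held these 2 sites at nearly the same coverage is not known, and if so the sums and shares of them depend on it. All 5 genes taken as marks of testis (Insl3, Amhr2, Piwil1, Adam2 and D1Pas1) had a listed site in the mRNA libraries of the same study, at 99 to 2795 reads. The Insl3 site has the same position as one named for Jak3 in the small RNA table, so its gene is uncertain.

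Coverage of the mitochondrial tRNAs spanned 4 orders of magnitude. The mt-tRNA-Ser2 site had 124502, 144515 and 103968 reads in KO libraries and 176895, 115572 and 115011 reads in WT libraries, and by mean coverage it ranked 9 among all 192 sites. It alone held 91.9% ± 0.961 of mitochondrial tRNA coverage in KO libraries and 91.7% ± 0.321 in WT libraries (SD, n = 3). Its neighbours in the gene order were far shallower, with 5292 to 6352 reads in KO and 5421 to 8767 reads in WT libraries for mt-tRNA-His, and 963 to 1310 reads in KO and 1040 to 1425 reads in WT libraries over both mt-tRNA-Leu2 sites. mt-tRNA-Leu1, which reads UUR leucine codons, had 2087 to 2835 reads in KO and 2193 to 3333 reads in WT libraries. The mt-tRNA-Met sites had 266 to 338 reads in KO and 248 to 384 reads in WT libraries. mt-tRNA-Pro had only 11 to 15 reads in KO and 11 to 34 reads in WT libraries, rank 174 by mean coverage. WT replicate 1 had the highest coverage at 6 of the 8 sites.

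**Figure D1:**
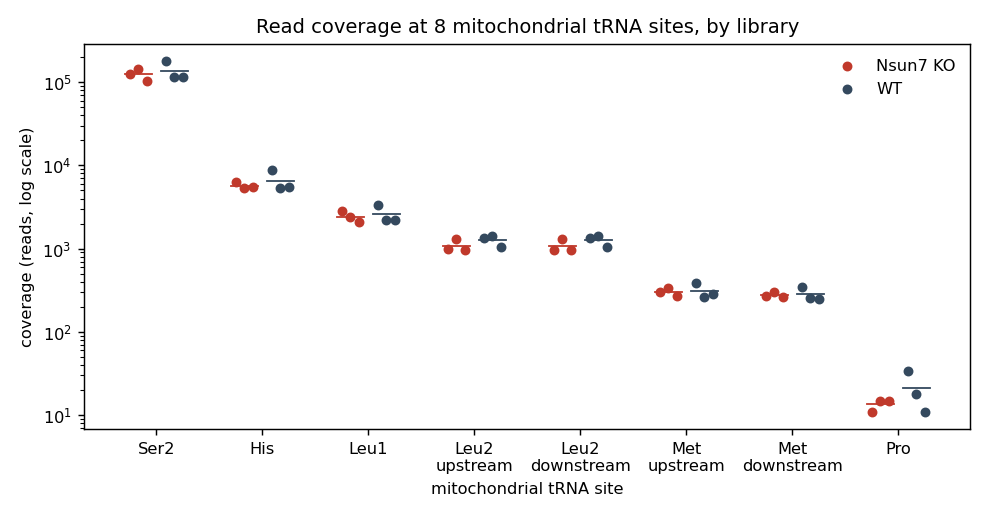
Read coverage (log axis) at each of the 8 mitochondrial tRNA sites, with 1 point per library, KO left of WT in each pair, and a short line at the mean of 3 libraries. mt-tRNA-Ser2 stands above 100000 reads in every library and mt-tRNA-Pro at 11 to 34.

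Most of the sites were close to fully methylated in both genotypes. By the mean of the 6 libraries the order ran mt-tRNA-His (97.6%), the downstream mt-tRNA-Leu2 site (96.5%), mt-tRNA-Leu1 (94.3%), mt-tRNA-Ser2 (94.0%), the downstream mt-tRNA-Met site (90.9%), the upstream mt-tRNA-Met site (56.6%), mt-tRNA-Pro (42.4%) and the upstream mt-tRNA-Leu2 site (22.9%). Not every step of this order exceeded the spread between libraries. The ranges of mt-tRNA-His and the downstream mt-tRNA-Leu2 site overlapped, as did those of mt-tRNA-Leu1 and mt-tRNA-Ser2, and mt-tRNA-Pro overlapped with both of its neighbours in the order. The largest step between neighbours whose ranges did not overlap was that from the downstream to the upstream site of mt-tRNA-Met, 34.3 percentage points.

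**Figure D2:**
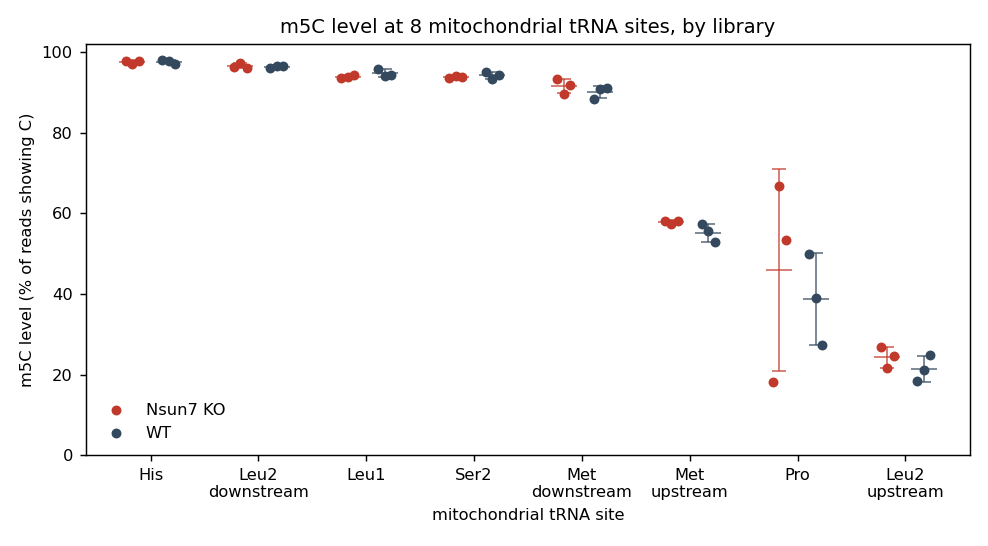
m5C level (percent of reads showing C) at the 8 mitochondrial tRNA sites in order of their mean, with 1 point per library, KO left of WT, and bars for the mean ± SD of 3 libraries. Of the 8 sites, 5 lie at 88.4% or above in every library, and mt-tRNA-Pro, the shallowest, has the widest bars.

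mt-tRNA-Met serves both the start and the internal methionine codons of mitochondrial mRNAs. At its upstream site, the wobble candidate, KO libraries had 58.2%, 57.4% and 58.1% and WT libraries had 57.3%, 55.5% and 52.8%. At the downstream site KO libraries had 93.4%, 89.7% and 91.7% and WT libraries had 88.4%, 90.9% and 91.1%. The upstream site was thus the lower of the 2 in every library, by 35.2, 32.3 and 33.6 points in KO and by 31.1, 35.4 and 38.3 points in WT. An exact sign-flip test over the 6 libraries gave p = 0.03125, two-sided, the smallest that 6 libraries can give. The sites were chosen with earlier results of these data known, so this p adds nothing to the values themselves. The test takes the libraries as independent, whereas m5C deviated together in same-numbered KO and WT libraries. Over the 3 averages of same-numbered libraries the exact sign-flip p was 0.25, the smallest that 3 can give. A single upstream value carries a counting error of several points: the exact 95% interval (Clopper-Pearson) of the lowest library, WT replicate 3, ran from 46.8% to 58.7%. Upstream minus downstream averaged -33.7 ± 1.43 points in KO and -35.0 ± 3.60 points in WT (SD, n = 3). KO minus WT was thus 1.27 points, the 9 possible KO and WT pairs gave -4.02 to 6.01, and an exact permutation test gave p = 0.6, where 3 against 3 libraries allow 0.1 at the least. On the log odds scale, and without WT replicate 3, the sign of this difference turned (-0.0724 in log odds and -0.412 points). The downstream site was covered by 89.1% to 98.5% as many reads as the upstream one in KO libraries and by 87.3% to 96.2% in WT libraries.

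Against the mean of the other 7 mitochondrial sites, the upstream mt-tRNA-Met site was lower in every library, by 19.8 ± 3.39 points in KO and 20.98 ± 1.12 points in WT (SD, n = 3). That mean includes mt-tRNA-Pro, with 11 to 34 reads, and the distance without mt-tRNA-Pro was not taken. The distance was smallest in KO replicate 1, at 16.0 points, where mt-tRNA-Pro stood at 18.2%. The upstream mt-tRNA-Met site was not the lowest of the 8, since both mt-tRNA-Pro and the upstream mt-tRNA-Leu2 site averaged less. The 3 cytosolic tRNA sites with levels nearest to it over the 6 libraries, among 133 with at least 10 reads in each library, were all in aspartate tRNAs. They were tRNA-Asp-GTC-1-11 at chromosome 13, position 22095529 (55.2% ± 2.29 in KO and 56.1% ± 2.18 in WT), tRNA-Asp-GTC-1-5 at chromosome 1, position 170929986 (59.0% ± 1.71 in KO and 60.6% ± 2.78 in WT) and tRNA-Asp-GTC-1-10 at chromosome 11, position 68931857 (61.3% ± 4.25 in KO and 57.1% ± 3.37 in WT; SD, n = 3). Their mean absolute distances from the upstream mt-tRNA-Met site were 2.54, 3.43 and 4.23 points. In the same order they had 150628 to 168388, 18241 to 56684 and 38 to 64 reads per library. The distance of the tRNA-Asp-GTC-1-10 site is below its counting error of 7.12 points (SD) per library, so its place is not firm. By their names these 3 are gene copies of the same aspartate tRNA, so they need not be separate cases.

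mt-tRNA-Leu2, which reads CUN leucine codons, showed a wider contrast between its 2 sites than mt-tRNA-Met did. At its upstream site KO libraries had 26.8%, 21.5% and 24.5% and WT libraries had 18.4%, 21.2% and 24.8%. One base further, the downstream site had 96.4%, 97.3% and 96.1% in KO libraries and 96.0%, 96.6% and 96.6% in WT libraries. The groups overlapped at each site, while the 2 sites stood apart by 69.6 to 75.8 points in KO libraries and by 71.8 to 77.5 points in WT libraries. The downstream base was covered by 98.5% to 99.5% as many reads as the upstream one across the 6 libraries. Cytosolic tRNAs held 36 pairs of neighbouring sites, whose gap between mean levels had a median of 7.40 points. Of these, 0 were as far apart as the 73.6 points of mt-tRNA-Leu2, and the nearest, in tRNA-Gly-CCC-2-2, was 73.3 points apart. These 2 gaps differ by less than the spread of the mt-tRNA-Leu2 gap over libraries, so their order is not settled. None of the 56 successive pairs in cytosolic tRNAs had the 13-nucleotide spacing of mt-tRNA-Met (0 pairs), and 10 were 8 to 11 nucleotides apart.

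**Figure D3:**
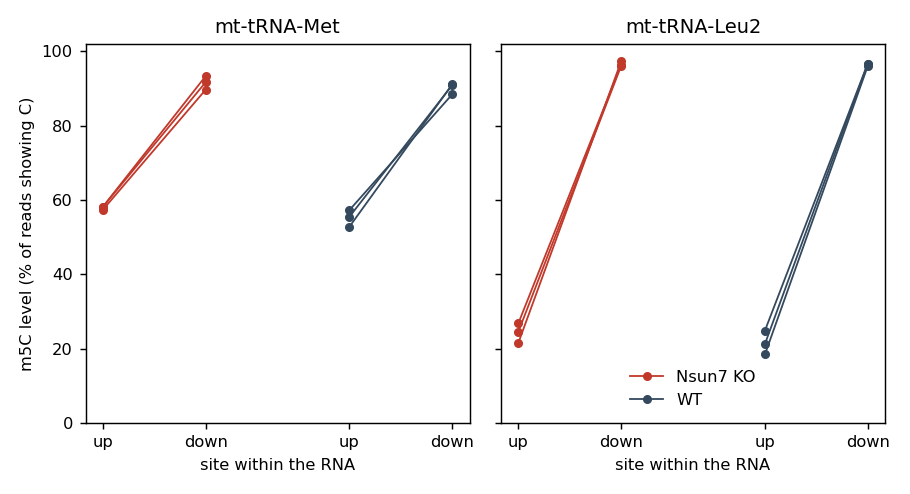
m5C level (percent of reads showing C) at the upstream and the downstream site of mt-tRNA-Met and of mt-tRNA-Leu2, with 1 line per library, KO left of WT. In all 6 libraries the downstream site is the higher, by 31.1 to 38.3 points in mt-tRNA-Met and by 69.6 to 77.5 points in mt-tRNA-Leu2.

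mt-tRNA-Ser2 reads AGY serine codons and lacks the D arm that other tRNAs have. Its site stood at 93.6%, 94.2% and 93.8% in KO libraries and at 95.1%, 93.4% and 94.2% in WT libraries. The groups overlapped, and WT replicate 1 was the highest of the 6. mt-tRNA-His had 97.8%, 97.0% and 97.8% in KO libraries and 97.9%, 97.9% and 97.1% in WT libraries. mt-tRNA-Leu1 had 93.5%, 93.9% and 94.3% in KO libraries and 95.9%, 94.0% and 94.3% in WT libraries, again with WT replicate 1 highest. At mt-tRNA-Pro the levels of 18.2%, 66.7% and 53.3% in KO libraries and 50%, 38.9% and 27.3% in WT libraries rested on so few reads that a single library's exact 95% interval could run from 2.28% to 51.8% (KO replicate 1), and no level could be set for this RNA at this depth.

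All 8 sites had at least 10 reads in every library and entered the genotype test, a quasi-binomial logistic model with Benjamini-Hochberg adjustment over the 184 small RNA sites tested. The model called 0 of the 8 sites, and 0% of the whole table. At an unadjusted p under 0.05 it had 0 of the 8, against 3.8% of the table, and limma on the levels also called 0. The KO mean was higher at 5 sites and lower at 3, and the median difference was 0.813 points, beside 96 higher, 92 lower and a median of 0.000918 points over all 192 sites. The widest difference outside mt-tRNA-Pro was 2.82 points, at the upstream mt-tRNA-Leu2 site, with 24.3% ± 2.65 in KO and 21.5% ± 3.21 in WT (SD, n = 3; adjusted p = 0.883 in the quasi-binomial model). The KO libraries there were 21.5% to 26.8% and the WT libraries 18.4% to 24.8%. With KO replicate 1 left out this difference was 1.56 points, without WT replicate 1 it was 1.29, and without WT replicate 3 it was 4.49.

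The upstream mt-tRNA-Met site was the only 1 of the 8 whose libraries did not overlap between genotypes, with KO above WT. Among all sites, 11.5% did not overlap in either direction and 5.73% had KO above WT. It averaged 57.9% ± 0.448 in KO and 55.2% ± 2.25 in WT (SD, n = 3), so KO minus WT was 2.71 points, and 0.105 to 5.38 across the 9 possible pairs. The exact permutation p, with the libraries taken as independent, was 0.1, the smallest possible. The adjusted p was 0.867 in the quasi-binomial model. In same-numbered pairs of libraries KO was higher by 0.902, 1.88 and 5.33 points. Without WT replicate 3 the difference was 1.51 points. The nearest KO and WT libraries lay 0.105 points apart, at a counting error of 2.86 points (SD) per library.

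At the other sites the range of the 9 KO minus WT pairs was taken to bound the difference. It is an exact 90% interval for a shift only if the libraries are independent. With same-numbered libraries taken as paired for m5C that level does not hold, and the smallest exact sign-flip p over 3 pairs is 0.25. At mt-tRNA-Ser2 the range ran from -1.49 to 0.809 points, so that the lowest bound was -1.58% of the WT level, and at mt-tRNA-His from -0.898 to 0.714 points. mt-tRNA-Leu1 averaged 93.9% ± 0.419 in KO and 94.7% ± 1.01 in WT (SD, n = 3), a difference of -0.809 points whose range was -2.38 to 0.313, and the downstream mt-tRNA-Leu2 site ranged from -0.581 to 1.35 points. Without WT replicate 1 the mt-tRNA-Leu1 difference was -0.227 points and that of mt-tRNA-Ser2, -0.358 points with all libraries, turned to 0.0705. The differences of mt-tRNA-His and of the downstream mt-tRNA-Leu2 site, -0.0944 and 0.189 points, turned sign too when KO replicate 2 or WT replicate 1 was left out, and that of mt-tRNA-His also without WT replicate 2. The downstream mt-tRNA-Met site averaged 91.6% ± 1.83 in KO and 90.2% ± 1.49 in WT (SD, n = 3), and its difference of 1.44 points was 0.556 without KO replicate 1 and 0.577 without WT replicate 1. For the upstream mt-tRNA-Leu2 site the bounds were -3.28 and 8.40 points, or -15.3% and 39.1% of the WT level. For mt-tRNA-Pro they were -31.8 and 39.4 points, or -82.2% and 101.7%. Exact permutation p over these 7 sites was 0.3 to 0.8.

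Averaged over the 8 sites, m5C was 72.2%, 77.2% and 76.2% in KO libraries and 74.9%, 73.5% and 72.3% in WT libraries. These gave 75.2% ± 2.64 in KO and 73.6% ± 1.30 in WT (SD, n = 3), so KO minus WT was 1.65 points, and -2.64 to 4.93 across the 9 pairs. The difference was 0.659 points without KO replicate 2, 1.01 without WT replicate 3 and 3.15 without KO replicate 1. The shallow mt-tRNA-Pro site carried part of both the difference and the spread. Without it the means were 79.4% ± 0.622 in KO and 78.5% ± 0.149 in WT, with the KO libraries at 79.9%, 78.7% and 79.5% and the WT libraries at 78.4%, 78.5% and 78.7%, so that the nearest lay 0.00641 points apart. With reads summed over sites, which gives nearly all weight to mt-tRNA-Ser2, the level was 93.4% ± 0.187 in KO and 93.6% ± 0.940 in WT, and the difference turned to -0.263 points.

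How far the libraries of a genotype scattered, relative to counting error, differed with depth. The SD between libraries at mt-tRNA-Ser2 was 0.637 points, 9.61 times the 0.0663 points that counting reads alone would give. At the upstream mt-tRNA-Leu2 site and at mt-tRNA-His it was 2.39 and 2.29 times the counting error, at mt-tRNA-Leu1 1.67 times, and at the downstream mt-tRNA-Leu2 and mt-tRNA-Met sites 0.974 and 0.960 times. At the upstream mt-tRNA-Met site it was 0.569 times. mt-tRNA-Ser2 was not apart from other deep sites in this: the 8 other sites with a mean of at least 100000 reads had ratios of 0.898 to 18.1, with a median of 9.79, and over all 172 sites with enough coverage the median was 1.13. Pooling the reads of a genotype leaves this spread out, and Fisher's exact test on pooled reads called mt-tRNA-Ser2 (adjusted p = 6.62e-17, KO lower by 0.466 points) and the upstream mt-tRNA-Leu2 site (adjusted p = 0.0419, KO higher by 2.80 points), among 12.8% of the table.

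**Figure D4:**
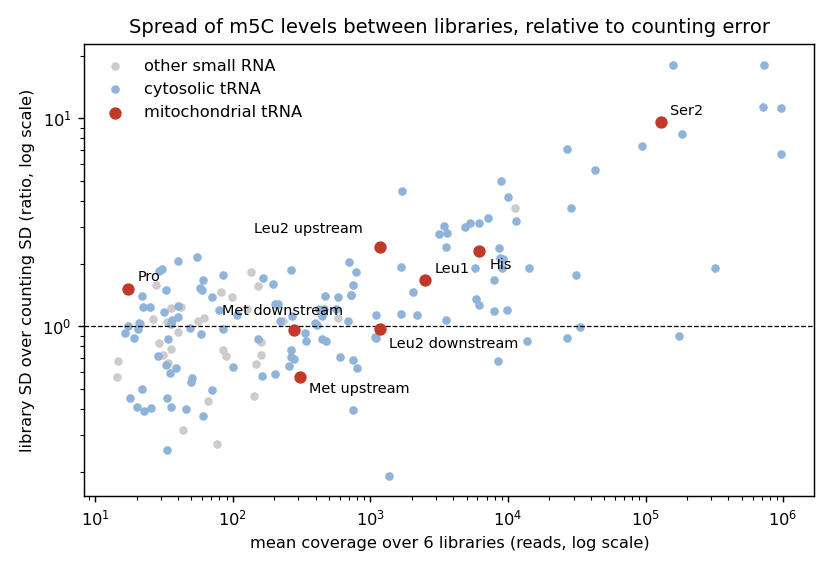
Ratio of the SD between libraries of a genotype to the SD that counting reads alone gives (log axis) against mean coverage (log axis) for the 172 small RNA sites with at least 10 reads in every library and a pooled level between all and none; the dashed line marks equality. mt-tRNA-Ser2 lies at 9.61 among the deep cytosolic tRNA sites, and both mt-tRNA-Met sites lie below the line.

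Coverage gave no call between genotypes either. edgeR's quasi-likelihood test with Benjamini-Hochberg adjustment called 0 of the 8 sites and 0% of the 192 tested, and at an unadjusted p under 0.05 it had 0 of the 8, against 6.77% of the table; DESeq2 called 0 of the 8 as well, and 4 of the 192. In these bulk samples fewer cells of a type and less RNA per cell cannot be told apart. The log2 fold change of KO over WT at the sites other than mt-tRNA-Pro ran from -0.08 to 0.14, and at mt-tRNA-Pro it was -0.44 (adjusted p = 0.767 in edgeR), or -0.02 without WT replicate 1. With summed coverage in place of edgeR's scaling, the median over all sites moved from 0.04 to -0.08, and KO was higher at 1 of the 8 sites and lower at 7, against 4 and 4 with edgeR's scaling. Mitochondrial tRNA sites took 2.67%, 3.33% and 2.39% of summed coverage in KO libraries and 3.82%, 2.52% and 2.68% in WT libraries, a difference of -0.210 points (exact permutation p = 0.6), or 0.197 points without WT replicate 1. Without the 2 deepest sites in the sums the share was 4.68% ± 0.877 in KO and 4.96% ± 1.10 in WT (SD, n = 3).

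Set beside cytosolic tRNAs, the mitochondrial sites had a higher median level, 92.7% in KO and 92.2% in WT, against 78.9% in KO and 79.2% in WT over the 139 cytosolic sites. Of the 8 mitochondrial sites, 5 (62.5%) averaged at least 90% in each genotype, and of the cytosolic sites 45 (32.4%) did in KO and 41 (29.5%) in WT. Their median coverage per library was 966.5 to 1303.5 reads in KO and 1048 to 1417 reads in WT, against 283 to 368 reads in KO and 316 to 375 reads in WT over cytosolic sites. These medians describe the listed sites only, since the sources used here do not give how the sites were chosen, and the sites of 1 RNA share reads.

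Other mitochondrial RNA appeared once in the study's tables. In large RNA, the NSUN4 candidate at base 842 of the mitochondrial 12S rRNA had 89.9%, 88.8% and 91.9% in KO libraries and 92.2%, 84.6% and 84.4% in WT libraries, at 77 to 147 reads (exact permutation p = 0.4). The mRNA table held 0 sites in mitochondrially encoded mRNAs and 0 in the 5 genes of the enzymes Nsun2, Nsun3, Nsun4, Alkbh1 and Trdmt1. Of 44 genes taken as ones for processing, modifying and charging mitochondrial tRNAs, 1 had a listed site, Qars1. This gene encodes the cytosolic glutaminyl-tRNA synthetase, so its place on that list is doubtful and its site may not bear on mitochondrial tRNAs. The Qars1 site stood at 13.6%, 22.9% and 29.5% in KO libraries and at 29.3%, 23.3% and 33.3% in WT libraries (chromosome 9, position 108390121; 43 to 83 reads; exact permutation p = 0.3), with the groups overlapping.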

How the data were processed

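Small RNA of adult KO and WT mouse testes was sequenced after ultrafast bisulfite conversion with a small RNA kit, per the labels' protocols. cutadapt, Trimmomatic, HISAT2, Bowtie2 and SAMtools and the build GRCm39 appear in the submitters' processing notes without roles or versions. Coverage, C reads and an m5C level stand side by side for each library, per the file headers. Coverage and C counts are deposited as raw counts of reads. The level deposited by the authors is a fraction, equal to C count over coverage to within 0.005. For this work, levels are percentages taken anew from these counts. No per-sample column was left unmapped (0).

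The members and lists were chosen with earlier results of these data known. The named sites are all 8 mitochondrial tRNA sites, the 3 nearest cytosolic sites to the upstream mt-tRNA-Met site, the sites of the gene lists and the mitochondrial rRNA site. Per site, C reads were fitted by a two-sided quasi-binomial logistic model (R 4.3.3) with the site's own dispersion, over libraries with at least 10 reads and at least 2 per group, with libraries fitted at either end of the scale not counted in the degrees of freedom, and a threshold of 0.05 after Benjamini-Hochberg adjustment. Coverage was tested with edgeR 4.0.16; limma 3.58.1 and DESeq2 1.42.0 served as alternatives. Single values were compared by exact permutation over the 10 splits of 6 libraries or by exact sign flips. The permutation takes the 6 libraries as independent, which pairing by number does not keep. A score over the members was given no p. The models were tested on simulated data with 40 of 192 sites changed. With levels times 0.5, the quasi-binomial model recovered 85% of these, and 2.86% of its calls were false. With coverage times 2, edgeR recovered 92.5%, and 11.9% of its calls were false, more than the threshold of 0.05 allows. Smaller changes, such as the m5C differences seen here, were not simulated. The changed sites were drawn from deeper ones only, so mt-tRNA-Pro, with a mean of 17.3 reads, could not be among them. Each rate rests on a single draw, with independent libraries and the same scatter setting at every site. Intervals are 95% Clopper-Pearson and, like the counting SD, cover counting error only: without molecular identifiers, reads are not independent molecules.

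Same-numbered KO and WT libraries deviated together in m5C (correlation of standardised residuals over 171 sites 0.309, 0.607 and 0.493, against -0.493 to 0.321 between differently numbered libraries), so their numbers were taken as paired for m5C by the limit of 0.1 per pair. KO replicate 1 correlated at 0.321 with WT replicate 3, slightly above its own number, and KO replicate 3 at 0.180 with WT replicate 1. Pairing these libraries across their numbers would pass the limit too, so the limit alone does not single out the same-numbered pairs. For coverage the correlations were 0.289, 0.265 and 0.0575, and the numbers were not taken as paired.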

Additional observations from a re-analysis of the deposited data

How the results depend on the processing

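No mitochondrial tRNA site was called for m5C without or with a coverage minimum of 50 (which left out mt-tRNA-Pro), a dispersion of at least 1, a moderated dispersion, limma, or any library left out; Fisher's exact test on pooled reads called 2, mt-tRNA-Ser2 (-0.466 points) and the upstream mt-tRNA-Leu2 site (2.80 points), since pooling leaves out the spread between libraries. With the replicate block, which takes same-numbered libraries as paired, the quasi-binomial model called 0 of 8, with a lowest adjusted p of 0.805. The limit used for pairing does not single out the same-numbered pairs. Among m5C results the block changed only the call of the mt-tRNA-Met gap within libraries. With libraries left out, the count of calls ran from 0 to 0 for m5C and for coverage. Single-site m5C differences changed sign in 7 such fits, at mt-tRNA-Ser2 (range -0.777 to 0.0705 points), mt-tRNA-His (-0.349 to 0.172), the downstream mt-tRNA-Leu2 site (-0.170 to 0.454) and mt-tRNA-Pro (-2.96 to 21.3). The difference in the mean over 8 sites ran from 0.659 to 3.15 points, and was 0.481 with the median over sites and 1.61 with each RNA counted once.

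Within libraries the mt-tRNA-Met gap ran from -34.95 to -33.5 points with 1 library left out, at p = 0.0625 in the exact sign-flip test, the smallest that 5 libraries can give, and was -34.3 points with the replicate block (p = 0.25, added after seeing the data). Its KO minus WT difference ran from -0.412 to 3.17 points and was -0.0724 in log odds, 1.27 points with the replicate block (exact sign-flip p = 0.75). The distance of the upstream mt-tRNA-Met site from the other 7, the shallow mt-tRNA-Pro site among them, was -1.64 in log odds and -21.2 to -19.9 points with libraries left out.

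The coverage log2 fold change turned negative with DESeq2 size factors at mt-tRNA-Ser2 (-0.041) and mt-tRNA-Leu1 (-0.0058), with summed coverage at mt-tRNA-Ser2 (-0.10), mt-tRNA-Leu1 (-0.064) and the upstream mt-tRNA-Met site (-0.013), with 1 site per RNA at mt-tRNA-Ser2 (-0.060) and mt-tRNA-Leu1 (-0.027), and without the 2 deepest sites, an alternative chosen after seeing the data like the mean without mt-tRNA-Pro, at mt-tRNA-Ser2 (-0.059) and mt-tRNA-Leu1 (-0.023); the cause was not tested. With libraries left out it ran from -0.16 to 0.15 at mt-tRNA-Ser2, -0.22 to 0.11 at mt-tRNA-His, -0.084 to 0.18 at mt-tRNA-Leu1, -0.29 to 0.00470 and -0.29 to 0.00732 at the mt-tRNA-Leu2 sites and -0.045 to 0.19 at the upstream mt-tRNA-Met site. The filter on low coverage removed no site. The replicate block, which does not pair coverage, called 6 of 192 sites against 0 without it, 0 of them mitochondrial. The share of coverage ran from -0.474 to 0.197 points. Depth limits mt-tRNA-Pro most, at 11 to 34 reads.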

Other observations

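WT replicate 1 stood at an end of the 6 libraries for several mitochondrial tRNAs at once. It had the highest coverage summed over the 8 sites, 192436, against 113968 to 155443 in KO libraries and 125316 and 126573 in the other WT libraries. This sum takes a read once at each site it covers and is not scaled for depth. The effective library size in edgeR was also largest in WT replicate 1. The level of WT replicate 1 was the highest of the 6 at 3 sites (mt-tRNA-Ser2, mt-tRNA-Leu1 and mt-tRNA-His). It was the lowest at 3 others (the upstream and downstream mt-tRNA-Leu2 sites and the downstream mt-tRNA-Met site). At mt-tRNA-His and the downstream mt-tRNA-Leu2 and mt-tRNA-Met sites the next library was nearer than the counting SD (0.198, 0.544 and 1.74 points). The 2 mt-tRNA-Leu2 sites also share reads. KO replicate 1 was highest at 3 sites and lowest at 2, while KO replicate 3 was at neither end at any of the 8. These counts were made after the values had been seen, and their relation to coverage was not tested.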
